A study of Mus musculus with 12 samples.

Results

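The genes described here are 40 enzymes of central carbon metabolism in mouse T cells: the steps of glycolysis with lactate dehydrogenase, 3 kinases that steer the use of sugar and pyruvate, the pyruvate dehydrogenase complex, the tricarboxylic acid (TCA) cycle with its cytosolic counterparts, and the pentose phosphate pathway. They were taken as a fixed list of gene symbols, and each symbol matched 1 of the 38924 gene IDs in the deposited count files. All 40 passed the filter on low counts, which left 13811 genes in the test. RNA sequencing had been carried out on 12 libraries, 3 for each of 4 groups. Naive T cells, labelled CD4+ and of C57BL/6 background, had been sorted from mouse spleens, expanded by antibody stimulation of CD3 and CD28, and then rested. The cells came either from wild-type (WT) mice or from STINGgt/gt mice, which carry a missense mutation of Tmem173 in the germ line, lack functional STING in every cell and are called STING KO in the sample labels. Cells of both genotypes were then kept for 16 h with the solvent DMSO or with CMA (10-carboxymethyl-9-acridanone), which binds and activates STING of the mouse. STING is the adaptor through which cytosolic DNA sensing switches on interferon and inflammatory genes. The comparisons asked how CMA changed these transcripts in T cells with functional STING, whether it did so in T cells without it, and how the genotypes differed with the solvent alone.

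Glycolysis splits glucose into pyruvate in the cytosol, and lactate dehydrogenase turns pyruvate into lactate while restoring the cofactor that the pathway needs. Pyruvate that enters mitochondria is converted by pyruvate dehydrogenase to acetyl-CoA, which the TCA cycle oxidises to feed the respiratory chain and to supply precursors such as citrate. The pentose phosphate pathway branches off at glucose-6-phosphate and yields NADPH and ribose for nucleotides. T cells are known for raising glucose uptake and lactate output when they are activated, and many enzymes of glycolysis are under the control of MYC and HIF-1α in that state.

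The libraries held 27414450 to 43784910 counted reads on genes. Reads with several alignments were left uncounted, 27.8% to 30.3% of the entries, so enzymes with near-identical processed pseudogenes (Gapdh, Ldha, Pgam1, Tpi1, Eno1, Aldoa, Pgk1 and Pkm among them) may be undercounted. This share moved with CMA in WT T cells, at 29.6% to 30.3% with DMSO and 27.8% to 27.9% with CMA, and reads on no annotated feature made up 4.86% to 5.47% and 6.79% to 7.16%. The groups did not overlap in either measure. They overlapped in STINGgt/gt T cells, with 28.1% to 29.0% and 28.1% to 28.3% for reads with several alignments. The part of these shifts in the results was not tested. The lowest count of any member in any library was 345, for Ldhb. Levels are given as CPM (counts per 1000000 reads on genes, with library sizes scaled by TMM), and their errors are standard deviations over 3 libraries. Errors of log2 fold changes are standard errors (SE). The study calls the RNA-seq samples of a group biological replicates, but neither it nor the labels says whether they came from separate mice, so the p-values measure the spread between these libraries. The 8 T cell markers (Cd3e and Cd4 among them) summed to 2905 to 3125 CPM in WT T cells with DMSO and to 2905 to 2946 CPM in STINGgt/gt T cells with DMSO. Markers of other cells were present too, with 7 B cell markers at 897 to 973 CPM in WT T cells with DMSO. There, 6 markers of CD8 and natural killer cells summed to 2021 to 2476 CPM, mostly Gzmb (2107 ± 227), whereas Cd8a stood at 22.8 ± 0.705. Whether Gzmb came from other cells was not tested. Tmem173 itself measured 183 to 190.3 CPM in WT T cells and 168 to 181 CPM in STINGgt/gt T cells with DMSO, and since the mutation alters the protein and not necessarily its transcript, this does not check the genotype labels.

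The 40 transcripts spanned a wide range of levels. Together they took 2.81%, 2.88% and 2.66% of all reads on genes in the 3 libraries of WT T cells with DMSO. Per kilobase of exon, Ldha was highest (1152 ± 7.14 CPM per kb), followed by Aldoa (1137 ± 81.8) and Pkm (934 ± 17.1). Ldha and Aldoa did not differ beyond their spread, nor did Gapdh (667 ± 42.4) and Pgk1 (646 ± 25.7) as the next pair. The 9 highest transcripts all encode enzymes of glycolysis or lactate dehydrogenase, down to Pgam1 at 135 ± 4.07 CPM per kb. In the TCA cycle citrate synthase (Cs, 92.2 ± 0.925) and Mdh2 (89.1 ± 4.57) were highest, with Cs within the spread of Mdh2. The phosphofructokinase Pfkp (89.0 ± 0.654) and Mdh2 did not differ beyond their spread. Tkt was the highest of the pentose phosphate enzymes, with 84.6 ± 2.16 CPM per kb. The lowest members were Idh1 at 5.86 ± 0.228 and Pfkfb4 at 3.58 ± 0.130 CPM per kb. This order depends on the exon length used. In CPM not divided by length, Pkm was highest (4671 ± 85.7), followed by Ldha (3814 ± 23.6) and Aldoa (3309.5 ± 238).

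**Figure D1:**
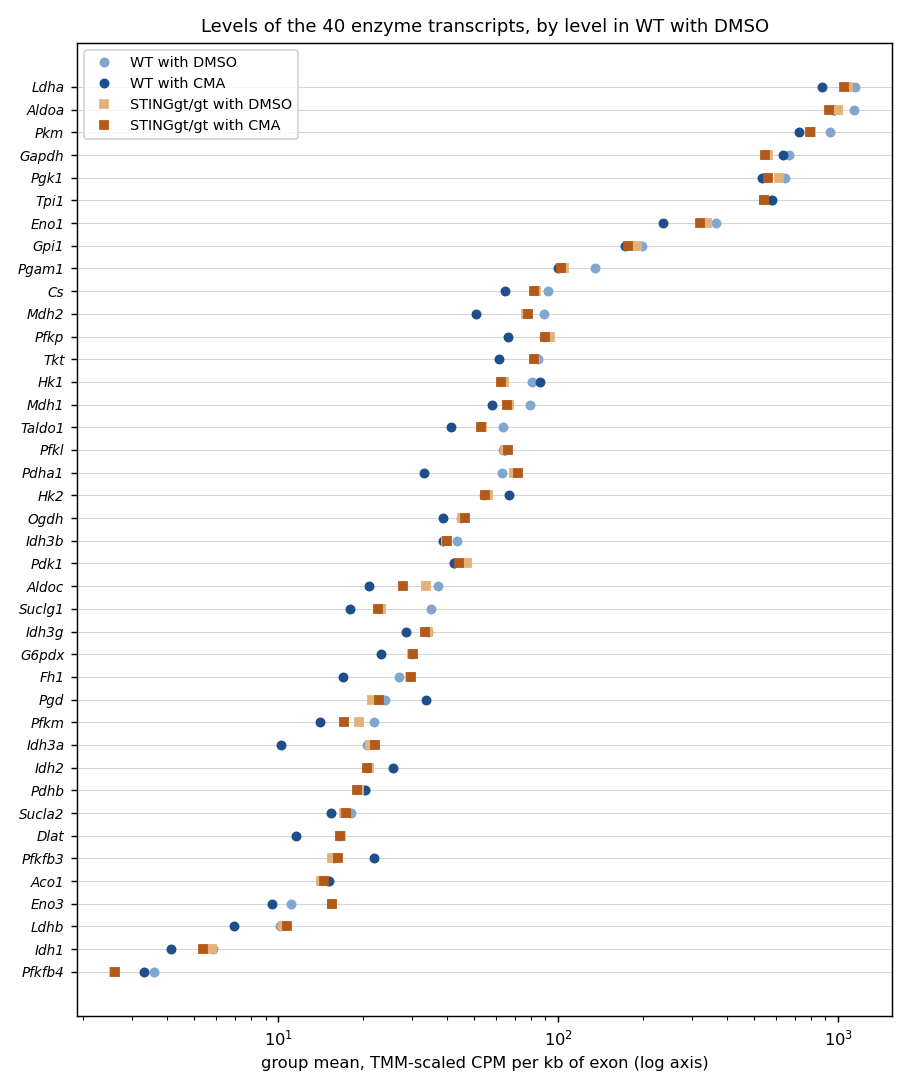
Mean level of each enzyme transcript in the 4 groups, in TMM-scaled CPM per kilobase of exon on a log axis, ordered by the level in WT T cells with DMSO. Ldha, Aldoa and Pkm stand at the top and Pfkfb4 at the bottom, and for most members the dark blue point of WT T cells with CMA lies to the left of the other points.

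CMA lowered most of these transcripts in WT T cells. With CMA, 28 of the 40 members (70.0%) were lower and 5 (12.5%) were higher than with DMSO at an adjusted p under 0.05, and 7 were not past the threshold. Among all 13811 genes tested, 37.4% were lower and 33.0% were higher by the same rule, 70.4% in all. The median log2 fold change of the members was -0.32, against -0.04 over all genes tested. The share of reads on genes that the 40 members took was 2.81%, 2.88% and 2.66% with DMSO and 2.22%, 2.29% and 2.26% with CMA, without overlap. In 29 members all CMA libraries lay below all DMSO libraries and in 5 all lay above, where 37.6% and 33.5% of all genes tested did so. In a bulk sample, fewer cells of a type and less RNA per cell cannot be told apart. The study reports apoptosis after overnight CMA in CD4+ T cells of WT mice and not of STINGgt/gt mice. The part of cell death in these values was not tested. Markers of other cells moved in the same libraries. The B cell markers summed to 1281 to 1406 CPM with CMA, with 5 of 7 called higher. Cd74 rose most in CPM, from 274 ± 13.6 to 592 ± 23.0 CPM. Ighm (494 ± 34.2 and 480 ± 34.1 CPM, log2 fold change -0.04) and Cd79b (-0.03) were not past the threshold. Markers of CD8 and natural killer cells summed to 1479 to 1576 CPM, with 5 of 6 called lower, and none of either list was at 0. Myeloid markers summed to 48.7 to 52.7 CPM with DMSO and 60.1 to 63.3 CPM with CMA. That sum was mostly Cst3, which was called higher (0.53), whereas Itgam (-1.71), Lyz2 (-1.50) and Fcer1g (-0.74) were called lower, among 6 tested. The 3 markers of erythroid cells and platelets summed to 1.24 to 1.58 CPM and 2.56 to 2.99 CPM. The T cell markers summed to 2705 to 2751 CPM, with 5 of 8 called lower and Cd4 called higher (0.19, adjusted p = 0.000203). The part of these shifts in the results was not tested.

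**Figure D2:**
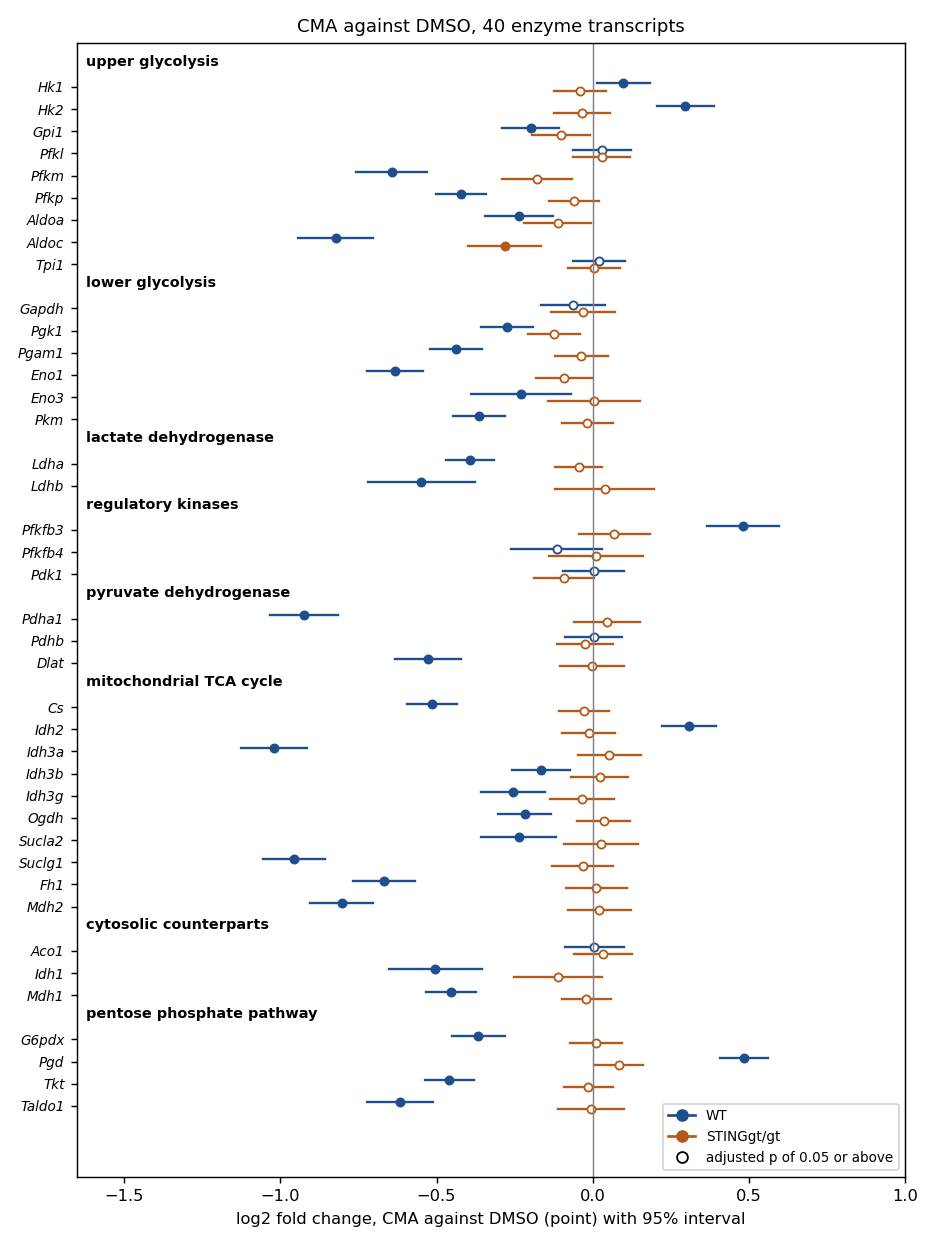
Log2 fold change of each enzyme transcript with CMA against DMSO (points) and its 95% confidence interval (lines) in WT and STINGgt/gt T cells, by role. In WT T cells 28 filled points lie to the left of 0 and 5 to the right, whereas in STINGgt/gt T cells Aldoc alone has a filled point.

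In the upper part of glycolysis, down to the trioses, 2 of 9 members rose and 5 fell. The hexokinases, which phosphorylate glucose and so trap it in the cell, went up. Hk2 (chromosome 6, 82725025 to 82774454, minus strand) measured 331, 313 and 326 CPM with DMSO and 403, 399 and 389 CPM with CMA. All CMA values lay above all DMSO values, with a log2 fold change of 0.30 ± 0.0426 (SE, adjusted p = 1.06e-05, edgeR). Hk1 measured 703, 681 and 681 CPM and 726, 742 and 742 CPM, again without overlap but with a difference of only 0.10 on the log2 scale (adjusted p = 0.0375). This call was lost with library-size scaling (adjusted p = 0.116) and with upper-quartile scaling (0.0641). It was also lost without the WT DMSO library 2 (0.0971), WT CMA library 1 (0.0551), 2 (0.114) or 3 (0.0921), or the STINGgt/gt DMSO library 2 (0.0647). Gpi1, which isomerises glucose-6-phosphate, fell by a small amount (log2 fold change -0.20, adjusted p = 0.000608).

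The 3 isoforms of phosphofructokinase, the enzyme of the committed step, did not move together. Pfkp, the most abundant of them, measured 1203, 1189 and 1187 CPM with DMSO and 891, 874 and 905 CPM with CMA. Its groups lay far apart, with a log2 fold change of -0.42 ± 0.0376 (SE, adjusted p = 3.74e-08). Pfkm measured 73.8, 77.3 and 69.5 CPM with DMSO and 46.4, 45.2 and 49.5 CPM with CMA, a log2 fold change of -0.64 (adjusted p = 1.52e-08). Pfkl measured 419, 437 and 412 CPM with DMSO and 428, 431 and 435 CPM with CMA. Its groups overlapped, and the interval of its log2 fold change ran from -0.06 to 0.12. Aldolase, which splits the sugar bisphosphate into trioses, was lower in both isoforms. Aldoc (chromosome 11, 78322968 to 78327781, plus strand) fell from 124, 129 and 110.3 CPM to 64.2, 70.7 and 70.8 CPM. That made it the member of the upper part with the largest change, at a log2 fold change of -0.82 ± 0.0564 (SE, adjusted p = 1.39e-09). The far more abundant Aldoa measured 3384, 3501 and 3043 CPM and 2734, 2929 and 2762 CPM, a log2 fold change of -0.24 (adjusted p = 0.000573). Triose phosphate isomerase, Tpi1, overlapped between the groups, with 1581 ± 52.4 CPM and 1602 ± 9.92 CPM (interval of the log2 fold change -0.06 to 0.10).

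In the lower part of glycolysis 5 of 6 members fell and none rose. Enolase makes phosphoenolpyruvate. Its main form Eno1 (chromosome 4, 150236721 to 150248879, plus strand) measured 1959, 2073 and 1883 CPM with DMSO and 1244, 1299 and 1271 CPM with CMA. No library of one group reached the other, with a log2 fold change of -0.63 ± 0.0427 (SE, adjusted p = 1.13e-09). The minor muscle form Eno3 measured 17.8, 21.1 and 18.9 CPM and 16.9, 14.9 and 17.5 CPM, a log2 fold change of -0.23 (adjusted p = 0.0129). Its call was lost without the WT CMA library 2 (adjusted p = 0.0690) and with only the groups compared in the model (0.0653). Eno2, the neuronal form and not one of the 40 members, went the other way, from 20.3 ± 3.46 CPM to 34.2 ± 1.61 CPM (log2 fold change 0.76, adjusted p = 1.4e-06). The phosphoglycerate mutase Pgam1 fell from 264, 263 and 277 CPM to 201, 195 and 199 CPM (log2 fold change -0.44, adjusted p = 4.52e-08). Pyruvate kinase, Pkm, which makes pyruvate and ATP, fell from 4635, 4769 and 4610.1 CPM to 3530.3, 3640.3 and 3716 CPM (log2 fold change -0.36, adjusted p = 3.57e-07). In both, every CMA library lay below every DMSO library. The phosphoglycerate kinase Pgk1 fell less (log2 fold change -0.28, adjusted p = 9.49e-06). Gapdh, often used as a reference gene, measured 2780.3, 2919.7 and 2571 CPM with DMSO and 2558, 2683 and 2667 CPM with CMA. Its groups overlapped and it was not past the threshold (log2 fold change -0.06, adjusted p = 0.242), although it was called lower without the WT DMSO library 3 (adjusted p = 0.0445).

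Both subunits of lactate dehydrogenase fell. Ldha (chromosome 7, 46841475 to 46855627, plus strand), the main form in T cells, measured 3817, 3836 and 3789 CPM with DMSO and 2898, 2907 and 2905 CPM with CMA. The libraries of each group lay close together and the groups far apart, with a log2 fold change of -0.39 ± 0.0359 (SE, adjusted p = 5.13e-08). Ldhb measured 16.3, 17.0 and 14.6 CPM and 10.5, 11.3 and 10.9 CPM, a log2 fold change of -0.55 (adjusted p = 1.31e-05).

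Of the kinases that steer these pathways, 1 of 3 changed. Pfkfb3 (chromosome 2, 11471430 to 11502101, minus strand), which makes the sugar phosphate that activates phosphofructokinase, measured 116, 114 and 128 CPM with DMSO and 170.3, 159.6 and 169 CPM with CMA. Every CMA library was higher than every DMSO library, with a log2 fold change of 0.48 ± 0.0541 (SE, adjusted p = 6.35e-07). Its relative Pfkfb4 measured 17.4, 18.1 and 16.8 CPM and 15.3, 16.6 and 16.5 CPM. These groups did not overlap either, but the test did not call it (log2 fold change -0.12, adjusted p = 0.146). Pdk1, the kinase that switches pyruvate dehydrogenase off, had 331 ± 11.0 CPM with DMSO and 331 ± 11.6 CPM with CMA, and the interval of its log2 fold change ran from -0.09 to 0.10.

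In pyruvate dehydrogenase 2 of 3 members fell. Pdha1 (chromosome X, 160122209 to 160138413, minus strand), which encodes the alpha subunit of its decarboxylase and is the site of inhibition by Pdk1, measured 237, 222 and 243 CPM with DMSO and 125, 121 and 124 CPM with CMA. Every CMA library was far below every DMSO library, with a log2 fold change of -0.92 ± 0.0509 (SE, adjusted p = 8.49e-11). Pdhb, which encodes the beta subunit of the same decarboxylase, measured 75.6, 79.4 and 81.1 CPM and 80.4, 78.8 and 77.4 CPM. Its groups overlapped, and the interval of its log2 fold change ran from -0.09 to 0.09. Dlat, which encodes the acetyltransferase core, fell from 81.3, 77.0 and 85.3 CPM to 57.2, 58.2 and 53.6 CPM (log2 fold change -0.53, adjusted p = 7.2e-08). Exons of Pdha1 share 603 bases with Map3k15 on the opposite strand in GENCODE M21. Exons of 10 further members share bases with a gene on the other strand, from 5 for Idh3b to 748 for Pfkp. The strand setting of the counting is not given in the sources used here.

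In the mitochondrial TCA cycle 9 of 10 members fell and 1 rose. Idh3a (chromosome 9, 54586511 to 54604661, plus strand), the catalytic subunit of the NAD-dependent isocitrate dehydrogenase, had the largest fall of all 40 members. It measured 101, 104 and 111 CPM with DMSO and 54.1, 50.5 and 51.1 CPM with CMA. The highest CMA library was far below the lowest DMSO library, with a log2 fold change of -1.02 ± 0.0496 (SE, adjusted p = 1.76e-11). The other subunits of that enzyme moved much less. Idh3b measured 147, 155 and 146 CPM and 132, 134 and 134 CPM (log2 fold change -0.17, adjusted p = 0.00276). Idh3g measured 91.9, 97.2 and 88.2 CPM and 75.7, 76.9 and 79.6 CPM (log2 fold change -0.26, adjusted p = 0.000188).

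In succinyl-CoA ligase, the step that makes a nucleoside triphosphate, both members fell. Suclg1 (chromosome 6, 73248382 to 73276911, plus strand), which encodes the subunit shared by both forms of the enzyme, measured 157, 163 and 164 CPM with DMSO and 84.8, 83.2 and 81.6 CPM with CMA. The groups were far apart, with a log2 fold change of -0.96 ± 0.0466 (SE, adjusted p = 1.79e-11). Sucla2, the beta subunit of the ATP-forming enzyme, had a log2 fold change of -0.24 (adjusted p = 0.00133). Suclg2, the beta subunit of the GTP-forming enzyme and not one of the 40 members, fell from 45.5 ± 3.06 CPM to 26.9 ± 1.43 CPM (-0.76, adjusted p = 8.51e-09). Mitochondrial malate dehydrogenase, Mdh2, fell from 304, 336 and 312 CPM to 178, 184 and 184 CPM, a log2 fold change of -0.80 ± 0.0477 (SE, adjusted p = 2.23e-10). Fumarase, Fh1, fell from 90.7, 93.8 and 91.0 CPM to 56.3, 55.9 and 61.3 CPM (log2 fold change -0.67, adjusted p = 1.93e-09). Both enzymes of the last steps of the cycle were thus lower in every CMA library. Citrate synthase, Cs, the entry step, fell from 533 ± 5.35 CPM to 373 ± 5.04 CPM (log2 fold change -0.51). Ogdh, of the alpha-ketoglutarate dehydrogenase complex, fell from 245 ± 6.13 CPM to 211 ± 3.66 CPM (log2 fold change -0.22). Idh2 (chromosome 7, 80094846 to 80115392, minus strand), the NADP-dependent isocitrate dehydrogenase of mitochondria, went the other way. It measured 54.1, 54.4 and 52.2 CPM with DMSO and 65.6, 66.5 and 66.6 CPM with CMA, a log2 fold change of 0.31 ± 0.0405 (SE, adjusted p = 3.92e-06).

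Among the cytosolic counterparts, Idh1 and Mdh1 fell. Idh1, the cytosolic NADP-dependent isocitrate dehydrogenase, measured 16.8, 15.6 and 16.3 CPM with DMSO and 11.0, 11.0 and 12.3 CPM with CMA (log2 fold change -0.50, adjusted p = 7.16e-06). Mdh1, of the malate-aspartate shuttle, measured 199, 206 and 205 CPM and 147, 147 and 151 CPM (log2 fold change -0.45, adjusted p = 1.64e-08). Aco1, a cytosolic aconitase that also serves as an iron sensor, overlapped between the groups, with 67.8 ± 2.67 CPM and 68.0 ± 0.701 CPM (interval of the log2 fold change -0.09 to 0.10).

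In the pentose phosphate pathway 1 of 4 members rose and 3 fell. Pgd (chromosome 4, 149149991 to 149166771, minus strand), the 6-phosphogluconate dehydrogenase that makes NADPH in the oxidative branch, measured 155, 156 and 154 CPM with DMSO and 216, 218 and 217 CPM with CMA. Its replicates agreed closely and the groups were far apart, with a log2 fold change of 0.48 ± 0.0359 (SE, adjusted p = 3.78e-09). G6pdx, which encodes the rate-limiting enzyme of the same branch, fell from 91.9, 92.8 and 92.1 CPM to 71.7, 70.7 and 72.4 CPM. Its change was opposite to that of Pgd (-0.37 on the log2 scale, adjusted p = 4.08e-07). The enzymes of the non-oxidative branch, which reshuffle sugar phosphates, fell as well. Tkt fell from 614, 641 and 613 CPM to 451, 459 and 449 CPM (log2 fold change -0.46, adjusted p = 1.28e-08). Taldo1 fell from 131, 144 and 138 CPM to 90.0, 93.8 and 86.0 CPM (log2 fold change -0.62, adjusted p = 1.21e-08).

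**Figure D3:**
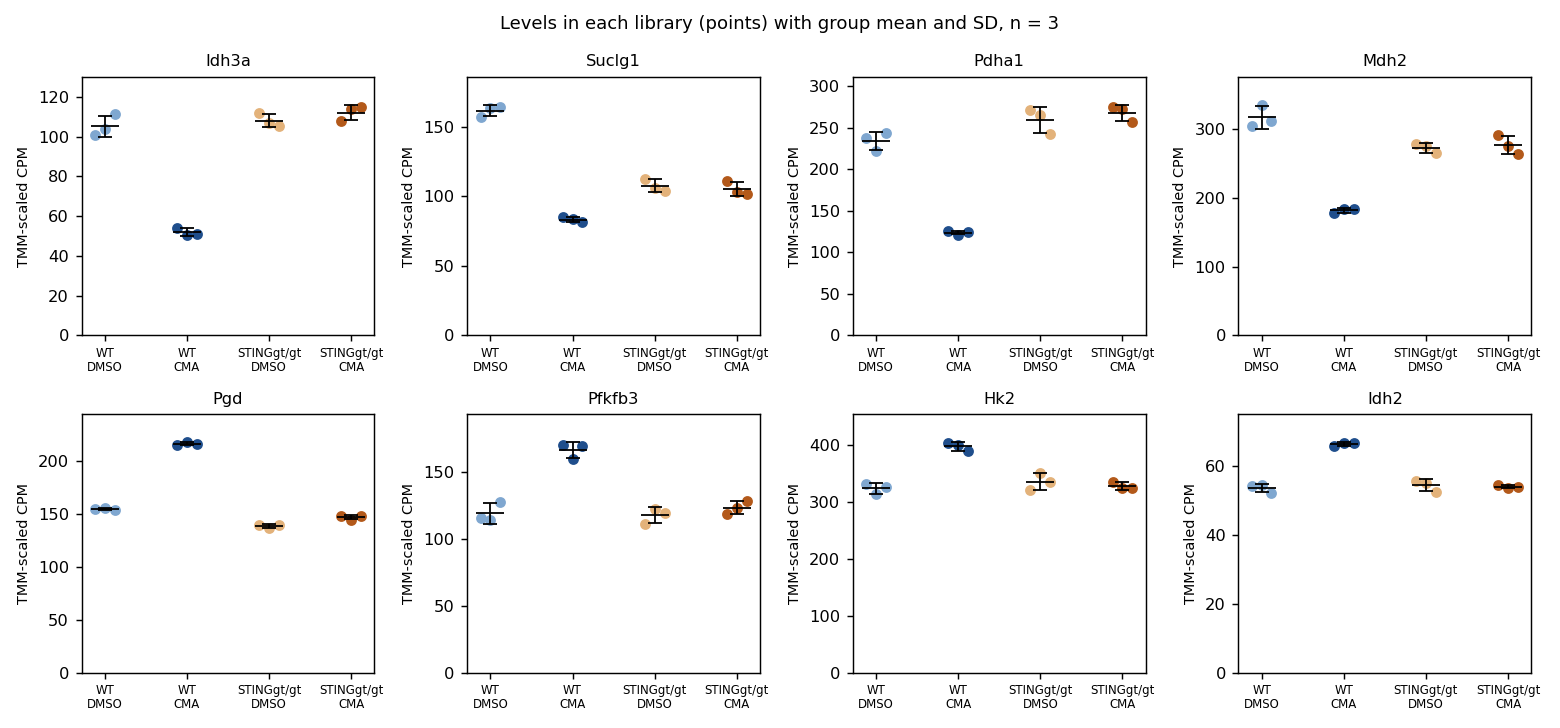
Level of 8 enzyme transcripts in each library (points, TMM-scaled CPM, linear axis from 0) with the group mean and SD (n = 3). In WT T cells with CMA the 4 transcripts of the upper row lie below and the 4 of the lower row above every other group, while the STINGgt/gt groups overlap in each panel except that of Pgd, where they lie slightly apart.

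Summed over their members, the roles differed in how far they moved. The mitochondrial TCA cycle went from 1822 ± 37.6 CPM with DMSO to 1297 ± 0.173 CPM with CMA. Pyruvate dehydrogenase went from 394 ± 15.5 to 259 ± 4.06 CPM, and lactate dehydrogenase from 3829.8 ± 24.9 to 2914 ± 4.94 CPM. The lower part of glycolysis went from 11137 ± 390 to 8949 ± 179 CPM. Relative to its level with DMSO, the upper part of glycolysis moved less, from 8998 ± 382 to 8100.1 ± 133 CPM. The summed kinases went from 467 ± 14.4 to 514 ± 15.7 CPM. The sums describe total transcript and were not tested.

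The balance within isozyme families shifted with the uneven changes. Shares were computed from reads per kilobase of exon and are given as values without a test. Hk2 made up 40.2% ± 0.494 of the hexokinase signal of Hk1 and Hk2 in WT T cells with DMSO and 43.5% ± 0.718 with CMA. Among the phosphofructokinases, Pfkp held 51.1% ± 0.906 and 45.8% ± 0.278, whereas Pfkl held 36.3% ± 0.521 and 44.5% ± 0.494. Aldoc held 3.17% ± 0.0293 of the aldolase signal with DMSO and 2.13% ± 0.0949 with CMA. Within NADP-dependent isocitrate dehydrogenase the balance moved from the cytosolic to the mitochondrial form, and Idh2 held 77.9% ± 0.852 with DMSO and 86.1% ± 0.715 with CMA. In malate dehydrogenase the shift ran the other way, since the mitochondrial form Mdh2 held 52.9% ± 0.939 with DMSO and 46.9% ± 0.465 with CMA. Idh3a made up 21.0% ± 1.29 of the signal of the 3 subunits of its enzyme with DMSO and 13.2% ± 0.582 with CMA. Ldha held more than 99% of lactate dehydrogenase in all WT libraries. In STINGgt/gt T cells Idh2 held 78.3% ± 0.745 with DMSO and 79.4% ± 0.430 with CMA, Mdh2 held 53.4% ± 0.168 and 54.1% ± 0.942, and Idh3a held 22.4% ± 0.235 and 23.1% ± 1.35. Aldoc held 3.19% to 3.33% with DMSO and 2.81% to 3.08% with CMA there, and Pfkl held 36.1% to 36.6% and 37.2% to 39.2%. Pfkm held 10.6% to 11.1% and 9.43% to 10.3%, and Idh2 held 77.5% to 78.9% and 79.0% to 79.8%. These shares did not overlap between the treatments and moved in the direction seen in WT T cells. The hexokinase balance differed between the genotypes, since in STINGgt/gt T cells Hk2 held 46.6% ± 0.644 and 46.7% ± 0.454, more than in any WT library.

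**Figure D4:**
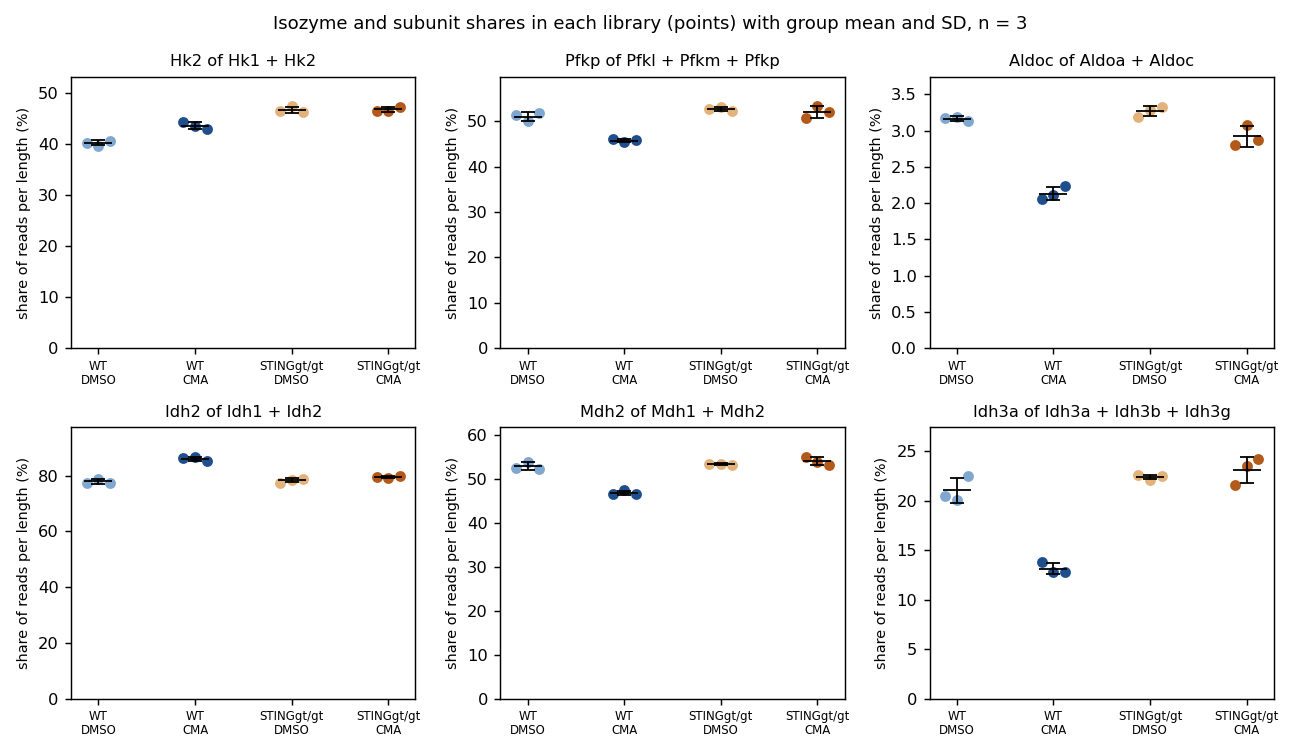
Share of 6 enzyme transcripts within their isozyme or subunit family in each library (points, in percent of the reads per kilobase of the family) with the group mean and SD (n = 3). The 3 libraries of WT T cells with CMA stand apart from those with DMSO in each panel, upwards for Hk2 and Idh2 and downwards for the other 4.

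Promoter sequences of members that moved in opposite directions are shown so that their motifs can be read beside the values above. The windows hold the 250 bases before the RefSeq gene start on GRCm38.p6, 5′ to 3′ on the strand of the gene, with matches in capitals, where a match on the other strand reads CACGT or CACGC. Of the 39 members with such a window, 24 have a RefSeq start within 100 bases of the gene start in the deposited annotation. Of the genes shown here, Suclg1 and Aldoc start further away, within their own windows. The letters searched on both strands were ACGTG and GCGTG (the core of the hypoxia response element bound by HIF-1), CACGTG (the E-box bound by MYC and MAX, which contains ACGTG) and TGACNNNGC (the antioxidant response element bound by NRF2). A match is a description of the letters only. Hk2, Pfkfb3 and Pgd rose with CMA in WT T cells and lie at chr6:82774455-82774704 (minus strand), chr2:11502091-11502340 (minus strand) and chr4:149166706-149166955 (minus strand).
Hk2: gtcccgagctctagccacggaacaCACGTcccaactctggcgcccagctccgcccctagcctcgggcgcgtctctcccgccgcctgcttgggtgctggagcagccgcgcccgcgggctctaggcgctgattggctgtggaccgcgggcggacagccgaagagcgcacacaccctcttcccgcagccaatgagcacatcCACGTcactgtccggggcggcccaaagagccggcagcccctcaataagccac
Pfkfb3: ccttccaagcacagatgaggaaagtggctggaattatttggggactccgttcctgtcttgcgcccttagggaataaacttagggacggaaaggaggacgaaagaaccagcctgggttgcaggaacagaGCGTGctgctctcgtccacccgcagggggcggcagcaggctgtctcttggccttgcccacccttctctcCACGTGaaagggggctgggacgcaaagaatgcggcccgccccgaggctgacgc
Pgd: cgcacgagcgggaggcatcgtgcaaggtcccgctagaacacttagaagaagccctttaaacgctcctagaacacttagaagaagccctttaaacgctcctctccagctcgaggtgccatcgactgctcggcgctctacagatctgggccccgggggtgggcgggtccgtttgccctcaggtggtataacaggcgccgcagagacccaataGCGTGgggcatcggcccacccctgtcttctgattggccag

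Pdha1 and Suclg1 fell in WT T cells, and Aldoc was the only member called in both genotypes. Their windows lie at chrX:160138431-160138680 (minus strand), chr6:73248255-73248504 (plus strand) and chr11:78322823-78323072 (plus strand).
Pdha1: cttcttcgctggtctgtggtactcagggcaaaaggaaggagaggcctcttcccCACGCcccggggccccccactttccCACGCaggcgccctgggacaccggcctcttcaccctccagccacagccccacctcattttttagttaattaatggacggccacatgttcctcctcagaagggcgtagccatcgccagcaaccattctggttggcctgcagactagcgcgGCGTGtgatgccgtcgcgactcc
Suclg1: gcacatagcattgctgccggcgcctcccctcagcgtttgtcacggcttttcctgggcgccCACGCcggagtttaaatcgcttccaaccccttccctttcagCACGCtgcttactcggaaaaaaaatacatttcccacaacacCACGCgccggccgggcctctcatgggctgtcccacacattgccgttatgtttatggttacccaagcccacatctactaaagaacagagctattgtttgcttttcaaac
Aldoc: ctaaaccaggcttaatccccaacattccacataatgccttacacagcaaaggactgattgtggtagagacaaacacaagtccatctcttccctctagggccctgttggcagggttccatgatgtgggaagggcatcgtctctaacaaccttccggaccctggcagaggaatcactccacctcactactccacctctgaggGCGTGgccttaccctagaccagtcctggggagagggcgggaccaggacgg

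The window of Hk2 held 2 matches to ACGTG and none to GCGTG, and that of Pfkfb3 held 2 matches to ACGTG, both within the same CACGTG, and 1 to GCGTG. Pgd and Aldoc held 1 match to GCGTG each, and Pdha1 and Suclg1 held 3 each. A window was found for 39 of the 40 members, all but Idh3a. GCGTG occurred in 23 of the 39 (59.0%), against 28.2% of the 32851 windows of the table and 44.1% of the windows of genes tested here. ACGTG occurred in 10 (25.6%), against 16.6% and 21.5%. CACGTG occurred in 3 (7.69%), against 6.02% and 8.06%, and TGACNNNGC in 3 (7.69%), against 10.2% and 11.9%. Among the 27 members with a window that fell in WT T cells, 15 held GCGTG and 7 held ACGTG. Among the 5 that rose, 3 held GCGTG and 2 held ACGTG.

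In STINGgt/gt T cells, by contrast, CMA changed 1 of these transcripts by the same rule. No member was called higher and 1 of 40 was called lower, where 0.398% and 0.920% of all genes tested were called, 1.32% in all. The median log2 fold change of the members was -0.02, against 0.00 over all genes tested. All log2 fold changes lay between -0.28 and 0.08. Aldoc measured 108, 109.8 and 113 CPM with DMSO and 90.1, 91.8 and 90.1 CPM with CMA. Its groups did not overlap, with a log2 fold change of -0.28 ± 0.0553 (SE, adjusted p = 0.0176). The call was lost without STINGgt/gt DMSO library 1 (adjusted p = 0.0549), 2 (0.0778) or 3 (0.0842), and without STINGgt/gt CMA library 1 (0.0641), 2 (0.0614) or 3 (0.0874). The members with the next smallest p were Pfkm and Pgk1. Pfkm measured 64.7, 64.6 and 65.5 CPM with DMSO and 60.3, 54.0 and 58.0 CPM with CMA (log2 fold change -0.18, adjusted p = 0.124). It was past the threshold without the WT DMSO library 2 (adjusted p = 0.0367) or 3 (0.0349) and with only the groups compared in the model (0.0192), so that the number of members called lower ranged from 0 to 2 over the fits that left out 1 library. Pgk1 measured 1377, 1371 and 1376 CPM and 1293, 1248 and 1245 CPM, which did not overlap (log2 fold change -0.12, adjusted p = 0.161). Markers of CD8 and natural killer cells summed to 874 to 916 CPM with DMSO and 665 to 711 CPM with CMA, and 1 of 6, Gzmb, was called lower (-0.40, adjusted p = 0.00317). No marker of the T cell, B cell, myeloid or erythroid and platelet lists was called. The part of this shift in the results was not tested.

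Groups that lay apart were more frequent than calls in STINGgt/gt T cells. In 7 members all CMA libraries were below all DMSO libraries (Gpi1, Pfkm, Pfkp, Aldoa, Aldoc, Pgk1 and Eno1), and in 1 (Pgd) all were above, where 11.3% and 11.8% of all genes tested did so. All 7 belong to glycolysis. For the members with the largest falls (Idh3a, Suclg1 and Pdha1) and rises (Pgd and Pfkfb3) in WT T cells, the intervals in STINGgt/gt T cells were narrow. Idh3a measured 108 ± 3.32 CPM with DMSO and 112 ± 3.90 CPM with CMA (interval of the log2 fold change -0.05 to 0.15). Pdha1 measured 259.7 ± 15.5 and 268 ± 9.88 CPM (-0.06 to 0.15), and Suclg1 measured 107 ± 4.74 and 105 ± 4.83 CPM (-0.13 to 0.07). Pfkfb3 measured 117 ± 6.06 and 123 ± 4.94 CPM (-0.05 to 0.18). For Pgd the interval (0.01 to 0.16) did not hold 0, but the adjusted p was 0.332.

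The difference between the genotypes was itself tested as an interaction. The CMA effect was more negative in WT than in STINGgt/gt T cells in 25 of the 40 members and more positive in 5, against 31.6% and 27.2% of all genes tested (58.8% in all). The median difference was -0.31, against -0.03 over all genes tested. It was largest for Idh3a, at -1.07 ± 0.0687 on the log2 scale (SE, adjusted p = 1.44e-09). Pdha1 followed at -0.97 ± 0.0711 (SE, adjusted p = 7.4e-09) and Suclg1 at -0.92 ± 0.0654 (SE, adjusted p = 4.74e-09). Pdha1 belongs to pyruvate dehydrogenase, and Idh3a and Suclg1 belong to the TCA cycle. Other members of these roles differed less, with Mdh2 at -0.82 (adjusted p = 2.54e-08) and Fh1 at -0.68 (1.93e-07) nearest to these 3. Pdhb stood at 0.03 (adjusted p = 0.725) and Idh3g at -0.22 (0.0113). In the positive direction stood Pfkfb3 at 0.41 (adjusted p = 0.000216), Pgd at 0.40 (4.57e-06), Hk2 at 0.33 (0.000187), Idh2 at 0.32 (0.000149) and Hk1 at 0.14 (0.0439). They are the same 5 genes that were called higher in WT T cells. The interaction includes the CMA effect in WT T cells, so this overlap is not a separate result. The value of Hk1 was not past the threshold in 12 of 20 alternative fits. They include those without the WT DMSO library 2, any WT CMA library, STINGgt/gt DMSO library 2 or 3, or STINGgt/gt CMA library 2 or 3, where its adjusted p lay between 0.0586 and 0.116. For Aldoc, lower with CMA in both genotypes, the difference between the effects was -0.54 ± 0.0789 on the log2 scale (SE, adjusted p = 2.07e-05).

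Without CMA, several of these transcripts already differed between the genotypes. With DMSO, 14 of the 40 members were higher in WT than in STINGgt/gt T cells and 4 were lower, where 22.9% and 19.8% of all genes tested were called, 42.7% in all. The median difference of the members was 0.08 on the log2 scale, against 0.00 over all genes. In 18 members all WT libraries lay above all STINGgt/gt libraries and in 4 below, where 25.3% and 22.6% of all genes tested did so. This comparison uses the same WT DMSO libraries as the CMA comparison in WT T cells, so their values share error. The largest difference was that of Suclg1, with 157, 163 and 164 CPM in WT and 113, 106 and 103 CPM in STINGgt/gt T cells. All WT libraries were higher, by 0.59 ± 0.0460 on the log2 scale (SE, adjusted p = 3.43e-08). With CMA, Suclg1 in WT T cells was at 83.2 ± 1.62 CPM, below both STINGgt/gt groups. Pfkfb4 measured 17.4, 18.1 and 16.8 CPM in WT and 12.4, 11.8 and 13.6 CPM in STINGgt/gt T cells, a difference of 0.47 (adjusted p = 5.12e-05). Hk1 measured 703, 681 and 681 CPM in WT and 530.2, 557 and 558 CPM in STINGgt/gt T cells, a difference of 0.33 (adjusted p = 5.69e-06). The groups lay apart in both.

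In the lower part of glycolysis Pgam1, Gapdh and Pkm were higher in WT T cells, by 0.37 (adjusted p = 1.41e-06), 0.25 (0.000536) and 0.22 (0.000245) on the log2 scale, whereas Eno3 was lower by the largest amount of any member. Eno3 measured 17.8, 21.1 and 18.9 CPM in WT and 25.8, 27.7 and 27.8 CPM in STINGgt/gt T cells, a difference of -0.49 ± 0.0724 (SE, adjusted p = 4.59e-05). In the upper part Aldoa (0.19, adjusted p = 0.0077) and Pfkm (0.18, 0.0117) were higher in WT T cells. In the TCA cycle Mdh2 (0.22, adjusted p = 0.00143) and Cs (0.15, 0.00505) were higher, as was Mdh1, the cytosolic counterpart of Mdh2 (0.25, 6.42e-05). In the pentose phosphate pathway Taldo1 (0.25, adjusted p = 0.0006) and Pgd (0.16, 0.00206) were higher. The remaining call in this direction was Idh3b (0.14), which was lost without the WT DMSO library 2 (adjusted p = 0.0586) or the STINGgt/gt DMSO library 3 (0.0784). It was also lost with upper-quartile scaling (0.0515), with no filter on low counts (0.0737) and with only the groups compared in the model (0.0563).

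The other members that were lower in WT T cells were Pdk1, Pdha1 and Fh1. Pdk1 measured 341, 319 and 332 CPM in WT and 357, 373 and 370.1 CPM in STINGgt/gt T cells (difference -0.15, adjusted p = 0.0142). Pdha1 measured 237, 222 and 243 CPM and 271, 266 and 242 CPM. These values overlapped, and the call (difference -0.15, adjusted p = 0.0254) was lost without the WT DMSO library 2 (adjusted p = 0.0620) and without the STINGgt/gt DMSO library 1 (0.107) or 2 (0.0818). It was also lost with only the groups compared in the model (0.0764). Fh1, Gapdh and Idh3b fell outside the naming rule and were named after their values were seen. Fh1 had a difference of -0.12 (adjusted p = 0.0423), and its call was lost without the WT DMSO library 1 (adjusted p = 0.0909) or 3 (0.0515), the WT CMA library 1 (0.0526), or the STINGgt/gt DMSO library 1 (0.0725) or 2 (0.135). The Fh1 call was also lost with no filter on low counts (0.0559), with only the groups compared in the model (0.0765) and with a replicate block (0.0543). Without STINGgt/gt DMSO library 1 or 2 the number of members lower in WT T cells was 2 in place of 4.

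Markers of other cell types also differed between the genotypes with DMSO. All 7 B cell markers were higher in WT T cells, and their sum was 450.4 to 468 CPM in STINGgt/gt T cells. The markers of CD8 and natural killer cells summed to 874 to 916 CPM in STINGgt/gt T cells, with 5 of 6 higher in WT T cells. All 6 myeloid markers tested were higher in WT T cells too, and the list summed to 36.1 to 37.9 CPM in STINGgt/gt T cells. Of the 3 erythroid and platelet markers 2 were higher in WT T cells, and the list summed to 0.0821 to 0.412 CPM in STINGgt/gt T cells. Of the 8 T cell markers 2 were higher in WT T cells and 2 lower, with Cd2 at 0.56, Cd4 at -0.31 and Cd3e at -0.14 on the log2 scale. Of all marker lists only Hba-a1, in STINGgt/gt T cells with DMSO, was at 0 in every library of a group. The alignment measures differed as well, since reads with several alignments made up 29.6% to 30.3% in WT and 28.1% to 29.0% in STINGgt/gt T cells, and reads on no annotated feature 4.86% to 5.47% and 5.98% to 6.54%, without overlap. The part of these markers and measures in the differences between the genotypes was not tested.

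**Figure D5:**
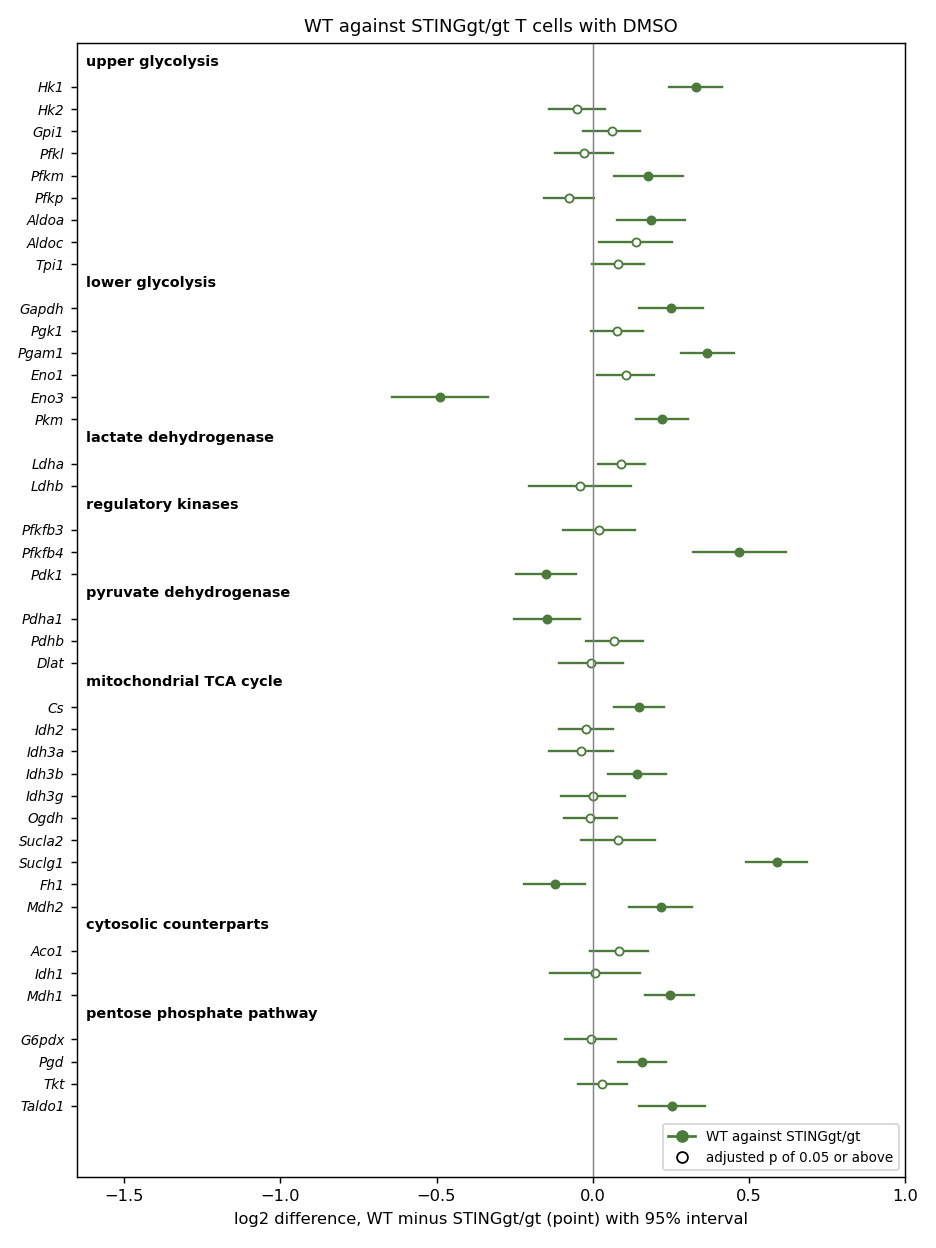
Difference of each enzyme transcript between WT and STINGgt/gt T cells with DMSO (points, log2, positive where WT is higher) with its 95% confidence interval (lines), by role. The 14 filled points to the right of 0 include Suclg1 and Pfkfb4, and the 4 to the left are Eno3, Pdk1, Pdha1 and Fh1.

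The remaining enzymes of these pathways were read from lists of other genes. Among other genes of glycolysis, 6 of 12 tested were lower with CMA in WT T cells and 2 were higher, where 37.4% and 33.0% of all genes tested were called. The smallest p-values were those of a phosphoglucomutase, Pgm1 (log2 fold change -0.95, adjusted p = 2.51e-11), the ADP-dependent glucokinase Adpgk (-0.73, 5.89e-10) and the bisphosphoglycerate mutase Bpgm (-0.81, 1.5e-08). Pgm1 went from 36.7 ± 1.36 CPM to 19.0 ± 0.397 CPM. The more abundant phosphoglucomutase Pgm2 had 319 ± 12.2 CPM with DMSO and 300 ± 4.35 CPM with CMA. It was not past the threshold (-0.09, adjusted p = 0.0646). Among other genes of pyruvate and the TCA cycle, 17 of 23 tested were lower and 3 were higher. Pyruvate carboxylase, Pcx, which makes oxaloacetate from pyruvate, went from 68.3 ± 6.22 CPM with DMSO to 10.8 ± 0.458 CPM with CMA (log2 fold change -2.66, adjusted p = 9.51e-15). The malic enzyme Me2 had a log2 fold change of -1.40 (adjusted p = 3.77e-14) and the aspartate aminotransferase Got1 one of -1.15 (adjusted p = 1.49e-13). All 3 fell by more than any of the 40 members. Among other pentose phosphate genes, 5 of 8 were lower and 2 were higher, and Rpia, which makes ribose-5-phosphate, changed by -0.79 (adjusted p = 7.01e-10). The phosphoribosyl pyrophosphate synthetases Prps2 and Prps1, which activate that ribose, changed by -0.51 (adjusted p = 6.59e-07) and -0.33 (2.92e-05). In STINGgt/gt T cells none of these was called except Pcx (-0.31, adjusted p = 0.0176) and Me2 (-0.19, 0.0293), both lower. With DMSO, 6 of the 12 glycolysis genes, 8 of the 23 pyruvate and TCA genes and 1 of the 8 pentose phosphate genes were higher in WT than in STINGgt/gt T cells, and 3, 1 and 1 were lower, where 22.9% and 19.8% of all genes tested were called.

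Of 11 carriers of glucose, lactate and mitochondrial substrates, 5 were lower and 5 were higher with CMA in WT T cells, near the 37.4% and 33.0% of all genes tested. The mitochondrial aspartate and glutamate carrier Slc25a12 changed by -0.66 (adjusted p = 3.26e-10). The glucose transporter Slc2a3 went from 1606 ± 28.1 CPM to 861 ± 68.0 CPM (log2 fold change -0.90, adjusted p = 1.14e-09). The lactate transporters differed in direction, with Slc16a1 at -0.77 (adjusted p = 6e-10) and Slc16a3 at 0.23 (adjusted p = 0.000784). Of 15 regulators tested, 5 were lower and 6 were higher, also near those shares. The alpha-arrestin Arrdc4, a target of the glucose-sensing factors MondoA and ChREBP, went from 1.16 ± 0.209 CPM to 29.2 ± 1.28 CPM (log2 fold change 4.68, adjusted p = 1.11e-14). The prolyl hydroxylase Egln3, which marks HIF-1α for removal, changed by -1.37 (adjusted p = 3.78e-14). Keap1, which holds NRF2 back, changed by 1.04 (adjusted p = 3.53e-12). Myc, which drives many glycolysis genes, was higher with CMA (0.65, adjusted p = 2.17e-08), while Hif1a was not past the threshold (0.12, adjusted p = 0.189). With DMSO, Hif1a was higher in WT than in STINGgt/gt T cells by 0.77 (adjusted p = 9.53e-07), and for Myc the difference was -0.26 (adjusted p = 0.00119).

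Hypoxia genes outside glycolysis include many targets of HIF-1. Of 14 tested, 5 were higher and 5 were lower with CMA in WT T cells, near the 33.0% and 37.4% of all genes tested. The vasodilator peptide gene Adm changed by 1.82 (adjusted p = 2.27e-11), Mxi1, an antagonist of MYC, by 0.79 (4.42e-11), and the oxidoreductase Ero1l, which helps to fold secreted proteins, by -1.03 (adjusted p = 4.98e-11). In STINGgt/gt T cells 4 of the 14 were lower with CMA and none was higher, where 0.920% and 0.398% of all genes tested were called. They were Ero1l (-0.40, adjusted p = 0.00145), Ddit4 (-0.28, 0.017), Bnip3 (-0.23, 0.0342) and Mxi1 (-0.18, 0.0404), and Egln3 from the list of regulators was lower too (-0.33, 0.000654). With DMSO, 9 of the 14 were higher in WT than in STINGgt/gt T cells and 2 were lower, and among the regulators 7 of 15 were higher and 4 were lower, where 22.9% and 19.8% of all genes tested were called.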

How the data were processed

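RNA from 12 T cell samples was sequenced from stranded mRNA libraries. The authors deposited raw counts per gene for each library, made on GRCm38, and 1 log2 table for the series. The submitters' processing notes list cutadapt 1.3, STAR 2.4.0f1, HTSeq 0.6.1 and RSEM 1.2.16 without giving their roles. In the deposited log2 table each value equals the log2 of the count plus 0.5, shifted by 1 constant per library, for all 11921 genes it holds, so its values carry no other correction. Reads on genes numbered 27414450 to 43784910 per library (median 36418677). Entries for non-unique, ambiguous or unassigned alignments were left out of library sizes and tests. Of all entries, 27.8% to 30.3% were not unique, 4.86% to 7.16% were on no feature (both moved with CMA in WT T cells and differed between the genotypes with DMSO) and 0.594% to 0.635% were ambiguous.

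The 40 members and the lists of other genes were chosen with earlier results of these data known. Each symbol was matched to its Ensembl ID. Genes were filtered with edgeR's filterByExpr, which left 13811 of 38924. Counts were scaled by TMM and tested with edgeR 4.0.16 (R 4.3.3, quasi-likelihood test, 1 model over all 4 groups), with p-values adjusted by Benjamini and Hochberg over all genes tested and a threshold of 0.05. The script was tested on simulated data. The difference of the CMA effect was tested as the interaction of genotype and treatment. All intervals are 95% confidence intervals of the model. Levels per kb used the union of exons in GENCODE M21. Promoter windows came from RefSeq on GRCm38.p6. Replicates differed by more than sampling noise, and libraries were not paired by replicate number. As a chi-square per degree of freedom, the spread between libraries of WT T cells with DMSO ran from 9.67 to 28.95. In the other groups it ran from 2.59 to 6.66. Alternatives were other scalings (library size, upper quartile, DESeq2 size factors), other filters, DESeq2 1.42.0, limma 3.58.1 on the deposited log2 table, a replicate block, only the groups compared, and leaving out each library.

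All 40 members were described in WT T cells. In STINGgt/gt T cells those past the threshold or the 3 with the smallest p were named, for the difference the members opposite to most and the 3 largest, between the genotypes up to 3 per role, and from other pathway lists the 3 with the smallest p for CMA in WT T cells. Intervals of further members in STINGgt/gt T cells, Eno2, Suclg2, Pgm2, Slc16a3, Myc and Hif1a were added after their values were seen. So were the differences of the CMA effect for Aldoc, Mdh2, Fh1, Idh3g and Pdhb, and the genotype differences of Fh1, Gapdh and Idh3b. The hypoxia genes called in STINGgt/gt T cells and the values of Cd74, Ighm and Cd79b were also added in this way.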

Additional observations from a re-analysis of the deposited data

Results flagged for a closer look

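For 30 of the 40 enzymes the CMA effect was not the same in both genotypes by the interaction test of edgeR at an adjusted p under 0.05, where 58.8% of all 13811 genes tested did so. Values are the effect in WT minus that in STINGgt/gt T cells on the log2 scale. In 5 enzymes it was more positive in WT T cells: Hk1 (0.14), Hk2 (0.33), Pfkfb3 (0.41), Idh2 (0.32) and Pgd (0.40). Among the enzymes of glycolysis it was more negative for Pfkm (-0.47), Pfkp (-0.36), Aldoc (-0.54), Pgk1 (-0.15), Pgam1 (-0.40), Eno1 (-0.54) and Pkm (-0.35), and so it was for Ldha (-0.35) and Ldhb (-0.59). In pyruvate dehydrogenase it was -0.97 for Pdha1 and -0.52 for Dlat. In the TCA cycle it was -0.49 for Cs, -1.07 for Idh3a, -0.19 for Idh3b, -0.22 for Idh3g, -0.25 for Ogdh, -0.26 for Sucla2, -0.92 for Suclg1, -0.68 for Fh1 and -0.82 for Mdh2. For the cytosolic enzymes Idh1 and Mdh1 it was -0.39 and -0.43. In the pentose phosphate pathway it was -0.38 for G6pdx, -0.44 for Tkt and -0.61 for Taldo1.

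The differences of Hk1 and Pgk1 rested on small changes, and each missed the threshold in 12 of 20 alternative fits. For Pgk1 the adjusted p lay between 0.0509 and 0.0958 without the WT DMSO library 1, WT CMA library 1 or 3, any STINGgt/gt DMSO library, or STINGgt/gt CMA library 1 or 2. For Idh3b it was 0.0541 without the STINGgt/gt DMSO library 3, 0.0587 without the STINGgt/gt CMA library 1 and 0.059 with no filter on low counts.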

How the results depend on the processing

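With WT T cells, CMA lowered 28 enzymes and raised 5, and leaving out 1 library gave 27 to 29 and 4 to 5, against 27 to 28 and 4 to 5 over the other alternatives. The difference of the CMA effect was more negative in WT T cells for 25 enzymes (23 to 26 without 1 library) and more positive for 5 (4 to 5). With DMSO, 14 enzymes were higher in WT T cells (13 to 18 without 1 library). The number lower in WT T cells, 4 in the report, was 2 with only the groups compared in the model, 5 with library-size or upper-quartile scaling, DESeq2 or a minimum of 10 counts in every library, and 2 to 4 without 1 library. The number lowered by CMA in STINGgt/gt T cells, 1 in the report, was 2 with only the groups compared and 0 to 2 without 1 library, and no alternative called an enzyme higher there. Over all genes, CMA raised 55 and lowered 127 in STINGgt/gt T cells, against 268 and 388 with only the groups compared. A replicate block gave 130 and 233. Leaving out the WT DMSO library 2 gave 180 and 276, the WT DMSO library 3 gave 169 and 289, and the WT CMA library 1 gave 37 and 101. Every fit without 1 STINGgt/gt library gave fewer than 55 and 127. The STINGgt/gt DMSO library 2 left out gave 14 and 42, and the STINGgt/gt CMA library 3 left out gave 15 and 41. The shares of 0.398% and 0.920% set beside the members rest on 55 and 127, and so depend on these choices. The cause of these shifts was not tested.

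Enzymes near 0 in WT T cells changed sign under some settings without being called. With library-size scaling Tpi1 was at -0.0062, Pdk1 at -0.0229, Pdhb at -0.0222 and Aco1 at -0.0193 on the log2 scale, and with upper-quartile scaling Pdk1 was at -0.0063, Pdhb at -0.0057 and Aco1 at -0.0026. Without 1 library Pdhb ranged from -0.0143 to 0.0359, Pdk1 from -0.0294 to 0.0349 and Aco1 from -0.0304 to 0.0444. In STINGgt/gt T cells Pdha1 ranged from -0.0047 to 0.0751 and Suclg1 from -0.0727 to 0.0020 in the same way, neither being called. Dividing by exon length sets the level of the isozyme shares, and from counts not divided by length all 80 share values (20 members in 4 groups) differed by more than 1 SD.

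Libraries with the same replicate number were checked for pairing. Their deviations from the group means correlated at 0.002 to 0.132 between DMSO and CMA within a genotype and at -0.0964 to -0.0052 between the genotypes, so the numbers were not taken to pair them. The numeric library names share their leading digit between DMSO and CMA for each replicate number, except for replicate number 2 in STINGgt/gt T cells. What these digits stand for is not given in the sources used here, and they were not used as a block. For CMA within a genotype the replicate block used the replicate numbers, which group the other pairs as these digits do. With a replicate block, 28 enzymes were lower and 5 higher in WT T cells with CMA, 1 was lower in STINGgt/gt T cells, the difference was called for 25 and 4, and 14 were higher and 3 lower in WT than in STINGgt/gt T cells with DMSO.

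The lowest counts, those of Ldhb, Idh1, Pfkfb4 and Eno3, gave the widest intervals. With 3 libraries per group, not stated to come from separate mice, p-values measure the spread between these libraries, and the differences between genotypes cannot be told apart from differences in how the cells of each genotype were collected.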
